A study of Mus musculus with 16 samples.

Results

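Hippocampal RNA was profiled by sequencing in 8 wild-type C57BL/6 mice whose tissue was taken 1 h after an intraperitoneal injection: 4 mice received beta-sitosterol at 100 mg/kg, and 4 received vehicle. These 8 libraries were chosen by their labels from the 16 of the series, whose other 8 come from the same treatments at 6 h (4 beta-sitosterol and 4 vehicle mice). All mice share the strain and the genotype, each library is 1 animal, and the 1 h beta-sitosterol mice are numbered 6 to 9 and the vehicle mice 2 to 5. The sources used here give neither sex nor age nor the make-up of the vehicle. Beta-sitosterol is a plant sterol that differs from cholesterol by an added ethyl group in the side chain.

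The 1 h interval is the time scale of immediate early genes, which neurons and vessel cells transcribe within minutes of calcium, MAP kinase or cAMP signalling, through factors such as CREB and SRF that are already present. Their products include transcription factors of the AP-1, Egr and Nr4a families, synaptic proteins such as Arc and Homer1a, and phosphatases such as Dusp1 that switch the kinases off again. Cellular sterol is kept in balance by SREBP factors, which drive synthesis and uptake, and by liver X receptors, nuclear receptors that drive sterol export and are activated by oxidised sterols.

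The 1 h libraries held 25924377 to 28360647 counted reads over genes, and levels are given as CPM, counts scaled to library size with TMM factors. Defining markers of hippocampal neurons were present in every library: the summed level of 14 pyramidal cell markers was 1920 to 2230 CPM in beta-sitosterol mice and 1840 to 2130 CPM in vehicle mice. There were 3 libraries that stood apart. Vehicle mouse 3 had the highest share of mitochondrially encoded reads (6.96%, against 4.53% to 6.12% in the other 7), and vehicle mouse 3 and beta-sitosterol mouse 9 had the most negative trend of counts with transcript length (-0.047 and -0.024). Vehicle mouse 5 had almost none of the choroid plexus RNA that the others carried: Ttr, the carrier transthyretin made by that epithelium, was at 1357, 2165, 2029 and 1034 CPM in beta-sitosterol mice, against 4581, 6136, 1337 and 45.9 CPM in vehicle mice. The choroid plexus markers summed to 1830 to 3970 CPM in beta-sitosterol mice and 246 to 10100.0 CPM in vehicle mice, and their part in the results below was not tested beyond the fit with a choroid plexus score. Reads of overlapping genes cannot be assigned without the strand setting of the counting. Genes described below with exons that overlap a gene on the opposite strand include Dusp1, Ccn2, Bdnf, Plxnb1, Zfp36l1, Usp14, Usp15, Csf1r, Eng and Notch3. The same holds for Ipo11, Neto2, Matr3, Psmd1, Slc1a1, Rora, Drd5, Bhlhe40 and Junb. Those that overlap a gene on the same strand include Usp15, Matr3, Arhgef3, Psmd1, Itgam, Hspa8 and mt-Nd4.

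No gene passed in edgeR for a difference between beta-sitosterol and vehicle mice at 1 h after correction for the number of genes. With edgeR's quasi-likelihood test, 0 of 17055 genes (0%) passed an adjusted p of 0.05, and the smallest adjusted p was 0.251. At an unadjusted p under 0.05 there were 1742 genes (10.2%), 985 of them higher (5.78%) and 757 lower (4.44%), where 853 would be expected if no gene differed. All 4 beta-sitosterol mice lay above all 4 vehicle mice in 519 genes (3.04%) and below them in 332 genes (1.95%), 851 genes in all (4.99%). The differences were small: the median fold among the genes whose groups did not overlap was 1.12, and the 95% interval of a gene's log2 fold change reached, at the median, 0.19 to either side of the estimate. Without vehicle mouse 3 the genes at an unadjusted p under 0.05 numbered 967, and without vehicle mouse 5 they numbered 2909.

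DESeq2, another count model, gave a short list. Its Wald test called 29 genes at an adjusted p under 0.05 (0.17%), 11 higher and 18 lower in beta-sitosterol mice, with adjusted p-values of 0.030 to 0.050; set to filter for that threshold it called 54 (0.317%), 33 higher and 21 lower. DESeq2's Wald test gave no adjusted p for 10246 of the 17051 genes it tested, so those genes were neither passed nor failed by it. They include Apold1, Itih3 and Dusp1, whose unadjusted DESeq2 p-values of 1.13e-07, 8.64e-07 and 3.47e-06 were smaller than the 4.37e-06 of Plxnb1, which was called. limma on the deposited normalized signal called 0, with 1738 genes at an unadjusted p under 0.05. Of the 29 genes, 25 had groups that did not overlap, against 4.99% of all genes. The calls and the overlap rest on the same 1 h libraries, so this count is no separate support for the calls. The lower ones included the GABA transporter Slc6a11, the synaptic gene Arc, the astrocyte gene Acsbg1, the lipid enzymes Gpam and Fads2, the lysosomal protein Laptm5 of microglia and the plexin receptor Plxnb1. The higher ones included the proteasome subunit Psmd11, the deubiquitinase Usp15, the importin Ipo5, the kinase Map2k4, the kinesin Kif21a, the kinesin adaptor Kifap3, the nuclear matrix protein Matr3 and the kainate receptor auxiliary subunit Neto2. Ipo5, Map2k4, Kif21a, Kifap3, Neto2 and Acsbg1 are given here as DESeq2 calls after their values were seen.

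**Figure D1:**
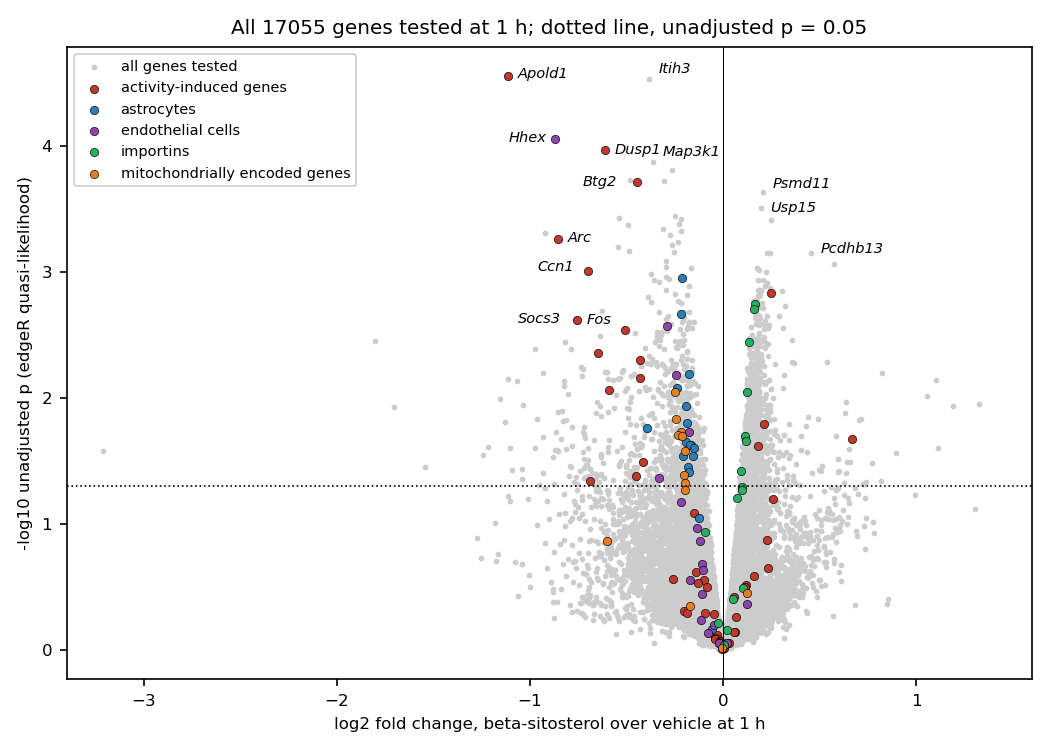
Log2 fold change of beta-sitosterol over vehicle mice at 1 h (x axis) against the negative log10 of the unadjusted edgeR p (y axis) for all 17055 genes tested, with members of 5 gene lists in colour. Apold1 and Itih3 stand furthest up on the left, the astrocyte markers cluster at small negative values, and the importins cluster at small positive values; none of the genes passed the adjusted threshold.

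Of the 12 genes with the smallest p on the lower side, 3 were on the list of activity-induced genes: Apold1, Dusp1 and Btg2. Apold1, an endothelial early-response gene (ENSMUSG00000090698, chromosome 6, 134981718 to 134986836 on the plus strand of GRCm38), had 3.05, 4.14, 3.75 and 3.00 CPM in beta-sitosterol mice, against 5.47, 11.4, 7.03 and 6.35 CPM in vehicle mice. The groups did not overlap, and its log2 fold change was -1.11 ± 0.20 (SE; edgeR adjusted p = 0.251), which is 2.16-fold lower. Dusp1, the phosphatase that inactivates MAP kinases in the nucleus (chromosome 17, 26505590 to 26562128, minus strand), had 9.63, 11.03, 11.03 and 13.7 CPM in beta-sitosterol mice, against 18.6, 20.5, 16.04 and 14.02 CPM in vehicle mice. Every beta-sitosterol mouse lay below every vehicle mouse, with a log2 fold change of -0.61 ± 0.12 (SE; edgeR adjusted p = 0.365). Btg2, an antiproliferative co-regulator that is itself an early gene (chromosome 1, 134075170 to 134079120, minus strand), had 14.01, 15.3, 15.5 and 16.2 CPM in beta-sitosterol mice, against 23.99, 21.9, 19.2 and 18.02 CPM in vehicle mice, again without overlap and with a log2 fold change of -0.45 ± 0.10 (SE; edgeR adjusted p = 0.365).

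Arc, the capsid-like protein that takes AMPA receptors off the synapse (ENSMUSG00000022602, chromosome 15, 74669083 to 74672570, minus strand), averaged 124 ± 16.7 CPM in beta-sitosterol mice and 223 ± 50.7 CPM in vehicle mice (SD, n = 4 each). Its values were 117, 109.9, 119 and 148 CPM in beta-sitosterol mice, against 160.4, 270.3, 204 and 258 CPM in vehicle mice. The lowest vehicle mouse, mouse 2, was close to the highest beta-sitosterol mouse, mouse 9, and the log2 fold change was -0.85 ± 0.19 (SE; edgeR adjusted p = 0.395). Fos, the AP-1 subunit most used as a marker of recent neuronal activity (chromosome 12, 85473890 to 85477273, plus strand), had 10.4, 9.87, 9.01 and 12.4 CPM in beta-sitosterol mice, against 16.9, 23.7, 13.8 and 15.8 CPM in vehicle mice. Vehicle mouse 3 was the highest, the groups did not overlap, and the log2 fold change was -0.76 ± 0.21 (SE; edgeR adjusted p = 0.395); without mouse 3 it was -0.58.

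Further early genes lay on the same side. Nr4a1, an orphan nuclear receptor, had 51.5, 50.1, 51.7 and 54.3 CPM in beta-sitosterol mice, against 57.3, 76.3, 65.3 and 81.2 CPM in vehicle mice. Npas4, a transcription factor induced by neuronal calcium entry, had 5.46, 6.86, 6.82 and 6.89 CPM in beta-sitosterol mice, against 9.07, 9.47, 8.41 and 12.2 CPM in vehicle mice. Ier2, a small nuclear early protein, had 3.85, 3.85, 3.96 and 3.39 CPM in beta-sitosterol mice, against 4.81, 6.02, 5.25 and 5.36 CPM in vehicle mice, and Sik1, a kinase that restrains CREB co-activators, had 15.7, 13.6, 15.98 and 14.6 CPM in beta-sitosterol mice, against 20.4, 26.2, 17.6 and 16.5 CPM in vehicle mice. In these 4 genes all beta-sitosterol mice lay below all vehicle mice, with log2 fold changes of -0.43, -0.59, -0.51 and -0.43 and adjusted p-values of 0.395 to 0.397 by edgeR's quasi-likelihood test. Ccn1, a secreted matrix protein induced by growth factors, had 2.98, 2.90, 3.25 and 3.89 CPM in beta-sitosterol mice, against 3.77, 7.01, 5.32 and 5.07 CPM in vehicle mice. Here vehicle mouse 2 lay within the beta-sitosterol range, and the log2 fold change was -0.70 ± 0.18 (SE; edgeR adjusted p = 0.395).

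Other early genes overlapped between the groups or lay on the other side of vehicle. Egr1, the transcription factor also known as Zif268, had 110.2, 122, 133 and 134 CPM in beta-sitosterol mice, against 111, 126, 118 and 158 CPM in vehicle mice, a log2 fold change of -0.039 ± 0.17 (SE; edgeR adjusted p = 0.951) whose sign turned when beta-sitosterol mouse 6 or vehicle mouse 5 was left out. Fosb had 9.42, 7.04, 6.36 and 8.58 CPM in beta-sitosterol mice, against 7.01, 8.75, 7.93 and 7.89 CPM in vehicle mice, with the groups interleaved and a log2 fold change of -0.0076 ± 0.15 (SE; edgeR adjusted p = 0.991). Junb, another AP-1 subunit, had 32.7, 28.7, 25.2 and 24.7 CPM in beta-sitosterol mice, against 24.4, 31.7, 33.5 and 43.6 CPM in vehicle mice, where vehicle mouse 5 was the highest, and Dusp6, the phosphatase of cytoplasmic ERK, had 51.04, 54.5, 50.3 and 55.97 CPM in beta-sitosterol mice, against 46.6, 53.1, 53.5 and 63.5 CPM in vehicle mice. Homer1, the scaffold of metabotropic glutamate receptors whose short early form Homer1a is not separated from the long forms in counts per gene, had 105, 106, 106 and 116 CPM in beta-sitosterol mice, against 85.8, 83.7, 96.4 and 98.2 CPM in vehicle mice. All 4 beta-sitosterol mice were above all vehicle mice, with a log2 fold change of 0.25 ± 0.07 (SE; edgeR adjusted p = 0.395).

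**Figure D2:**
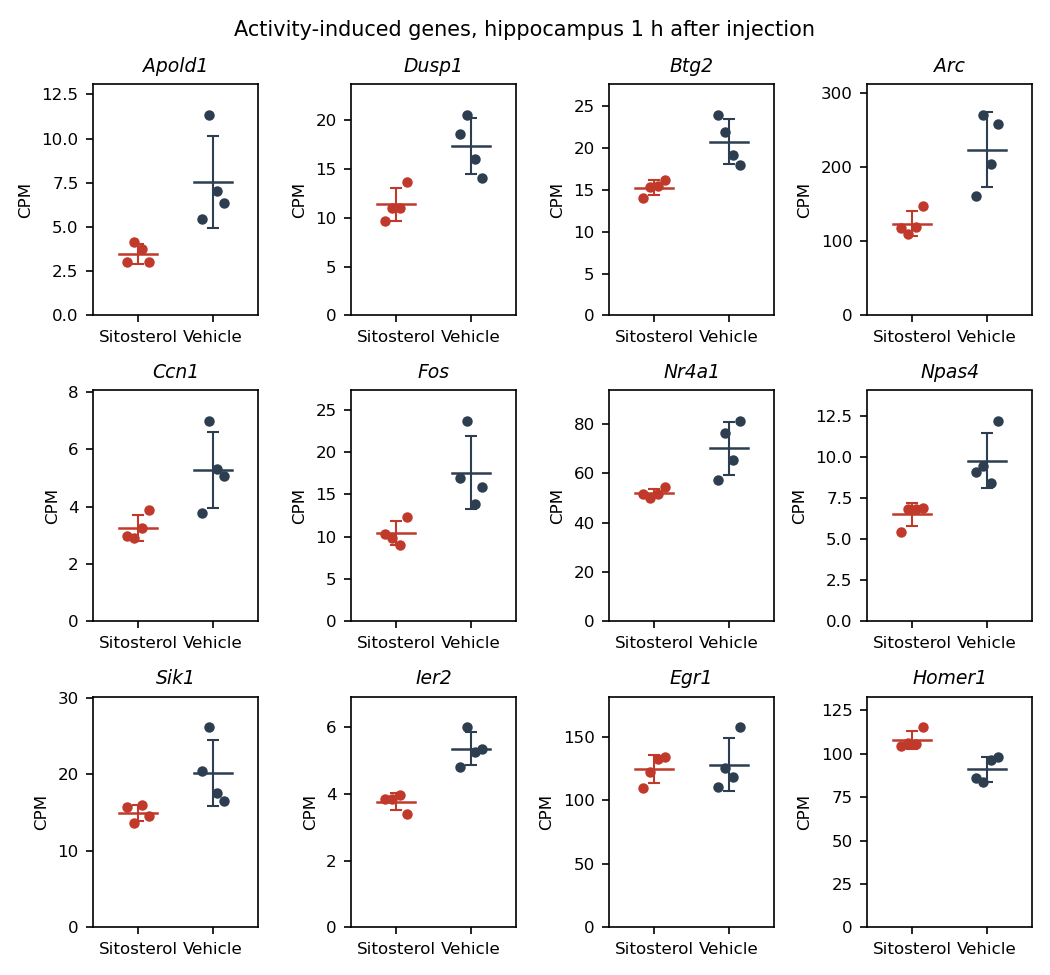
CPM (y axes, from 0) of 12 activity-induced genes in each beta-sitosterol mouse (left, red) and vehicle mouse (right, dark), with the mean and SD of 4 mice. The groups do not overlap in 10 of the 12 panels: Apold1, Dusp1, Btg2, Arc, Fos, Nr4a1, Npas4, Sik1 and Ier2 are lower and Homer1 higher in beta-sitosterol mice, while Ccn1 and Egr1 overlap. The panels are a selection. On the whole list of 52 the groups did not overlap in 9 lower and 4 higher members, against 1.95% and 3.04% of all genes.

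Over the whole list of 52 activity-induced genes, all tested, the picture was mixed. The median log2 fold change was -0.036, against -0.0039 over all genes, and 34 members (where 51.3% of all genes) were negative. At an unadjusted p under 0.05 there were 14 lower members (4.44% of all genes) and 4 higher ones (5.78% of all genes). Leaving out vehicle mouse 3 left 11 lower and 1 higher, leaving out beta-sitosterol mouse 8 left 11 and 2, and leaving out vehicle mouse 5 gave 12 and 8. The median was -0.098 without vehicle mouse 2, -0.074 without beta-sitosterol mouse 9 and -0.0205 without vehicle mouse 5. Groups did not overlap in 9 lower members (1.95% of all genes), all described above, and in 4 higher ones (3.04% of all genes), namely Homer1, Bdnf (the growth factor of synapses), Ptgs2 (the inducible cyclooxygenase) and Dusp2. The list was chosen with these values known, so its count is a description.

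By role, with no test between roles, the medians were as follows. The members named had an unadjusted p under 0.05. Over all genes, 4.44% had one on the lower side and 5.78% on the higher. Among the 11 inducible transcription regulators other than AP-1, Egr and Nr4a the median log2 fold change was -0.19. Of them 8 were negative, with Btg2, Ier2, Npas4, Klf2 and Klf4 lower at an unadjusted p under 0.05. The 6 secreted and vascular early genes had a median of -0.37, with Apold1, Ccn1 and Ccn2 on the lower side (Ccn2 at 4.90 ± 0.796 CPM in beta-sitosterol mice and 7.69 ± 2.11 CPM in vehicle mice, SD over 4 mice each). The 6 AP-1 subunits had a median of -0.024, with 5 negative and Fos the only member at an unadjusted p under 0.05. The 7 Egr and Nr4a factors had a median of -0.096, with 6 negative, among them Nr4a1 and Egr2. The 12 phosphatases and feedback regulators had -0.045, with 10 negative, Dusp1 and Sik1 among them, and Dusp2 on the higher side. The 10 synaptic effectors had a positive median, 0.15, with Homer1, Plk2 and Bdnf on the higher side beside Arc on the lower.

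Promoter sequence is given for 6 early genes with the smallest p among those in the RefSeq table of the build GRCm38.p6, because these genes lay on opposite sides (Homer1 higher, the others lower) and share a motif. Each window runs 5′ to 3′ on the gene's strand from 250 bases before to 50 bases after the RefSeq start, and capitals mark letters of a searched motif. The windows are Apold1 at chr6:134981751-134982050 (plus strand), Dusp1 at chr17:26508423-26508722 (minus), Btg2 at chr1:134079106-134079405 (minus), Ccn1 at chr3:145649936-145650235 (minus), Homer1 at chr13:93303507-93303806 (plus) and Fos at chr12:85473640-85473939 (plus).
Apold1: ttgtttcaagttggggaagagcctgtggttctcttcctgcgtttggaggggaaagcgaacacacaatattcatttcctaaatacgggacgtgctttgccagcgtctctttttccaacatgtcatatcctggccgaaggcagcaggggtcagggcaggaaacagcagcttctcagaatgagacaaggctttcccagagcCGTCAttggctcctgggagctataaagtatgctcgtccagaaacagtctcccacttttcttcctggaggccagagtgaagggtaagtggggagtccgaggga
Dusp1: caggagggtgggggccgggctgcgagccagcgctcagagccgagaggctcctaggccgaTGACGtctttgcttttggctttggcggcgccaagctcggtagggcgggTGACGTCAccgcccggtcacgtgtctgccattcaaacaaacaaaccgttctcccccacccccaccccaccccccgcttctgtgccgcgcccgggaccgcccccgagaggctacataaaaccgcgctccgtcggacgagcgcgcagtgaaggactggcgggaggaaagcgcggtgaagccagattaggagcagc
Btg2: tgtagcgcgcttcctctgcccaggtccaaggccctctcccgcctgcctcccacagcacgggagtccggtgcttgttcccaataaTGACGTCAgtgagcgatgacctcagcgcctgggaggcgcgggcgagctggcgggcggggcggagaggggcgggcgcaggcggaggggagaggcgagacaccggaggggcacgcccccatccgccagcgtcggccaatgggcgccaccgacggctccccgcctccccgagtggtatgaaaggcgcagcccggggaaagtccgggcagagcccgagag
Ccn1: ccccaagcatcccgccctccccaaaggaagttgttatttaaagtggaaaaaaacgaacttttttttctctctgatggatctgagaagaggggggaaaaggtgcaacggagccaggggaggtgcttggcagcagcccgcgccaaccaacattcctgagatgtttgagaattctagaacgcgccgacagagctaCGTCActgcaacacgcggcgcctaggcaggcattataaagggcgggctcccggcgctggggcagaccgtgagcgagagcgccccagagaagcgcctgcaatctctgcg
Homer1: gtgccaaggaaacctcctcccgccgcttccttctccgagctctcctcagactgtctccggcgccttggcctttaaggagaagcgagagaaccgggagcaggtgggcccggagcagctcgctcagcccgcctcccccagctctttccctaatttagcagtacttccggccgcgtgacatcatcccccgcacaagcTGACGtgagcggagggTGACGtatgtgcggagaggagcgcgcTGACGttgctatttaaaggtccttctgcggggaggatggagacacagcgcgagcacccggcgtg
Fos: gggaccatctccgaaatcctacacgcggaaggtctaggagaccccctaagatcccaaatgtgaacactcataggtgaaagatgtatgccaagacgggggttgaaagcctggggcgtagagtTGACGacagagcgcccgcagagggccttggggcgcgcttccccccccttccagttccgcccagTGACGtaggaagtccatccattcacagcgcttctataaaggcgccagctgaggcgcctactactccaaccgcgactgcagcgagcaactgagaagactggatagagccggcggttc
The motifs searched, on both strands, were the core of the cAMP response element (TGACG), the full element (TGACG followed directly by TCA, which holds a core on each strand), the AP-1 site TGANTCA and the CArG box bound by SRF. Of the 52 activity-induced genes, 40 matched a promoter in the table. The core was in 23 of these 40 windows (57.5%), against 20.9% of all 27025 windows, and the full element in 4 (10%), those of Btg2, Plk2, Pcsk1 and Dusp1, against 1.84%. The AP-1 site was in 0 of the 40, against 7.88% of all windows, and the CArG box in 2 (5%), against 1.57%. Homer1, which was higher, has 3 cores within its window, and Fos, which was lower, has 2. Whether the motifs go with the direction was not tested.

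Markers of astrocytes, the glia that clear glutamate and potassium from synapses, had small negative fold changes in beta-sitosterol mice. All 17 markers tested had a negative log2 fold change (51.3% of all genes), with a median of -0.18, and 15 had an unadjusted p under 0.05 (4.44% of all genes on the lower side). That count was 7 without vehicle mouse 3, 7 without vehicle mouse 4 and 8 without beta-sitosterol mouse 8, and it was 6 with the length trend of the libraries as a covariate; the median ranged from -0.22 to -0.13 over all alternatives. Acsbg1, an acyl-CoA synthetase, had 154, 148, 141 and 157.6 CPM in beta-sitosterol mice, against 158.1, 183, 183 and 172 CPM in vehicle mice. The groups did not overlap, and the log2 fold change was -0.21 ± 0.06 (SE; edgeR adjusted p = 0.395). Slc6a11, the GABA transporter GAT-3, had 180.2, 166, 171 and 171 CPM in beta-sitosterol mice, against 207, 232, 226 and 184 CPM in vehicle mice, with a log2 fold change of -0.30 ± 0.07 (SE; edgeR adjusted p = 0.365). Sox9, the transcription factor of astrocytes, had 27.99, 28, 26.6 and 26.9 CPM in beta-sitosterol mice, against 38.7, 43.3, 34.4 and 27.5 CPM in vehicle mice. Its beta-sitosterol mice were tightly grouped, vehicle mouse 5 lay among them, and the log2 fold change was -0.39 ± 0.15 (SE; edgeR adjusted p = 0.434). In bulk tissue, fewer cells of a type and less RNA per cell cannot be told apart. The summed astrocyte markers were 8800.0 to 9430.0 CPM in beta-sitosterol mice and 9670.0 to 10900.0 CPM in vehicle mice.

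Microglial and vascular markers lay the same way. All 16 microglial markers were negative, with a median log2 fold change of -0.14, and -0.073 with the length trend as a covariate. Of them 3 had an unadjusted p under 0.05 (4.44% of all genes), and 4 had groups that did not overlap (1.95% of all genes): Csf1r (the receptor for colony stimulating factor), Trem2, Itgam and Cx3cr1. Csf1r had 106, 113, 112 and 108 CPM in beta-sitosterol mice, against 114, 129.5, 134 and 130.5 CPM in vehicle mice, with a log2 fold change of -0.21 ± 0.06 (SE; edgeR adjusted p = 0.395). The markers summed to 560.0 to 632 CPM in beta-sitosterol mice and 607 to 697 CPM in vehicle mice. Laptm5, a lysosomal protein of blood and microglial cells, had 41.97, 43.4, 43.2 and 46.04 CPM in beta-sitosterol mice, against 46.8, 53.6, 55.5 and 51.8 CPM in vehicle mice, without overlap. Of 19 endothelial markers 16 were negative, with a median of -0.11 and 5 at an unadjusted p under 0.05 (4.44% of all genes), or 3 without beta-sitosterol mouse 7. Hhex, a homeobox factor of endothelium (chromosome 19, 37434810 to 37440731, plus strand), had 1.05, 0.884, 0.990 and 1.12 CPM in beta-sitosterol mice, against 1.40, 2.31, 1.94 and 1.76 CPM in vehicle mice. The groups did not overlap at these low levels, and the log2 fold change was -0.87 ± 0.17 (SE; edgeR adjusted p = 0.365). Slco1a4, an organic anion carrier of the blood-brain barrier, had 53.7, 49.6, 46.2 and 48.2 CPM in beta-sitosterol mice, against 64.2, 66.7, 56.01 and 54.5 CPM in vehicle mice, and Eng, the endoglin co-receptor for TGF-beta, had 25.4, 21.5, 21.2 and 22.6 CPM in beta-sitosterol mice, against 28.2, 26.5, 26.4 and 26.4 CPM in vehicle mice, with log2 fold changes of -0.29 and -0.24. Of 11 mural markers 9 were negative with a median of -0.19 (-0.086 with the length trend), including Notch3 and Pdgfrb, receptors of pericytes and smooth muscle (log2 fold changes -0.24 and -0.19). At 6 h, 4 of these 11 were negative, with a median of 0.052. The 13 markers of oligodendrocytes had none at an unadjusted p under 0.05 and a median of 0.0038, which was 0.15 without vehicle mouse 3 and -0.12 without vehicle mouse 5.

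**Figure D3:**
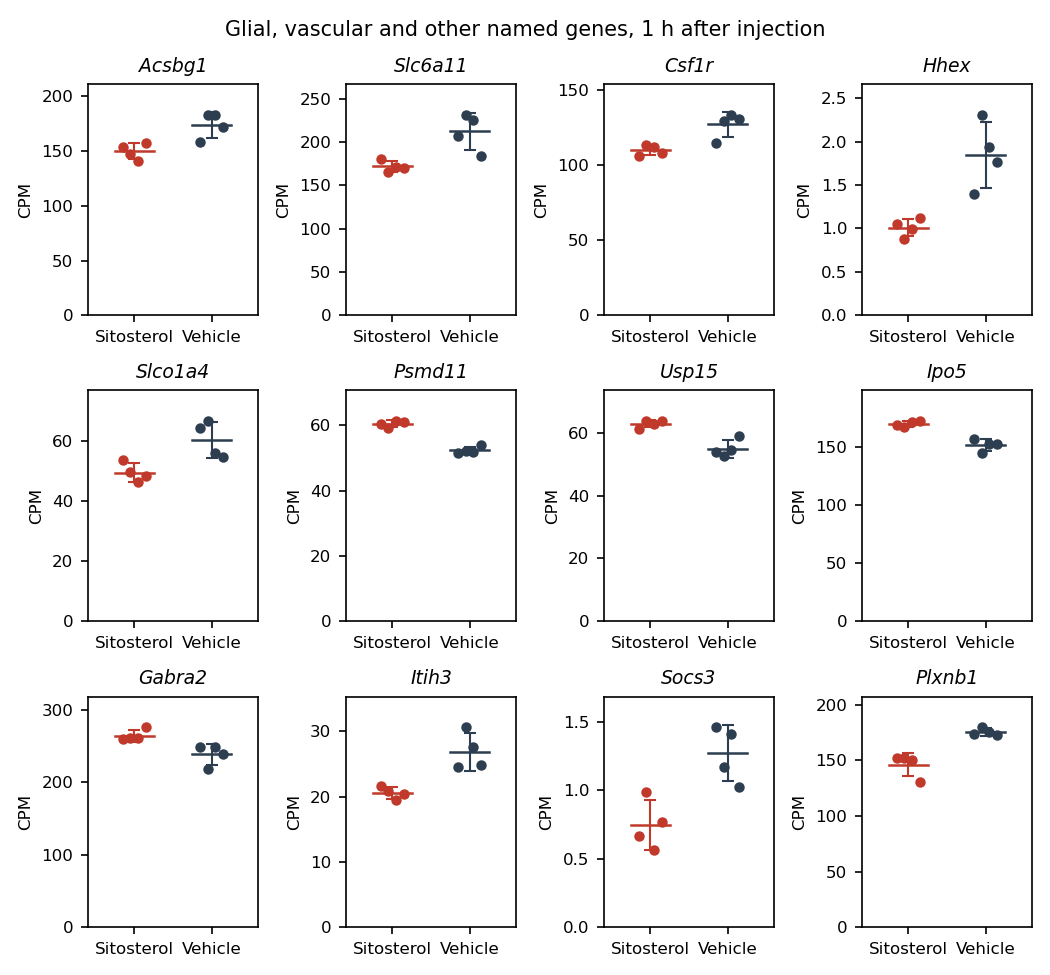
CPM (y axes, from 0) of 12 genes in each beta-sitosterol mouse (left, red) and vehicle mouse (right, dark), with the mean and SD of 4 mice. Astrocyte, microglial and vascular genes (Acsbg1, Slc6a11, Csf1r, Hhex, Slco1a4), Itih3, Socs3 and Plxnb1 lie lower and Psmd11, Usp15, Ipo5 and Gabra2 higher in beta-sitosterol mice, with no overlap between the groups in any of the 12 panels. The panels are a selection: the groups did not overlap in 4.99% of all genes. On the marker lists they were apart in 5 of 17 astrocyte, 4 of 16 microglial and 3 of 19 endothelial genes, all lower (1.95% of all genes).

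Genes outside these lists of markers were also among those with the smallest p on the lower side. Itih3, a secreted inter-alpha-trypsin inhibitor chain that binds hyaluronan (ENSMUSG00000006522, chromosome 14, 30908572 to 30923760, minus strand), had 21.6, 20.8, 19.5 and 20.4 CPM in beta-sitosterol mice, against 24.4, 30.7, 27.5 and 24.8 CPM in vehicle mice. Its log2 fold change was -0.38 ± 0.07 (SE; edgeR adjusted p = 0.251), and at 6 h it was -0.28, with groups apart at both times. Plxnb1, the receptor for semaphorin 4D, had 152, 152, 149.8 and 130.5 CPM in beta-sitosterol mice, against 174, 180.2, 175 and 173 CPM in vehicle mice; beta-sitosterol mouse 9 was the lowest, and the log2 fold change was -0.26 ± 0.06 (SE; edgeR adjusted p = 0.365). Map3k1, a kinase upstream of JNK, had 11.1, 10.2, 10.99 and 9.39 CPM in beta-sitosterol mice, against 14.2, 13.4, 13.7 and 12.4 CPM in vehicle mice, and Zfp36l1, which directs decay of AU-rich messages, had 10.3, 10.7, 9.76 and 9.05 CPM in beta-sitosterol mice, against 14.5, 15.6, 13.5 and 11.8 CPM in vehicle mice. Their log2 fold changes were -0.36 and -0.48, without overlap. Socs3, the feedback inhibitor of cytokine receptors, was low throughout, with 0.666, 0.990, 0.566 and 0.770 CPM in beta-sitosterol mice, against 1.47, 1.17, 1.41 and 1.03 CPM in vehicle mice and a log2 fold change of -0.76 ± 0.22 (SE; edgeR adjusted p = 0.395). The other acute-phase and cytokine genes were not at an unadjusted p under 0.05, and the median of the 15 tested was -0.056. Gpam and Fads2, enzymes of glycerolipid synthesis and of polyunsaturated fatty acid desaturation, had log2 fold changes of -0.22 ± 0.05 (SE; edgeR adjusted p = 0.395) and -0.23 ± 0.05 (SE; edgeR adjusted p = 0.395). Gm13341, an unprocessed pseudogene that can share reads with its parent gene, had -0.54.

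On the higher side, Psmd11 and Usp15 were among the 12 genes with the smallest p. Psmd11, a subunit of the proteasome's regulatory lid (chromosome 11, 80428615 to 80473248, plus strand), had 60.2, 59.1, 61.4 and 61.01 CPM in beta-sitosterol mice, against 51.5, 52.3, 51.9 and 53.9 CPM in vehicle mice. Usp15, a deubiquitinating enzyme (chromosome 10, 123105006 to 123196995, minus strand), had 61.3, 63.8, 62.8 and 63.6 CPM in beta-sitosterol mice, against 53.8, 52.5, 54.4 and 58.99 CPM in vehicle mice. The groups did not overlap in either gene, with log2 fold changes of 0.21 ± 0.05 (SE; edgeR adjusted p = 0.394) and 0.20 ± 0.04 (SE; edgeR adjusted p = 0.395). All 17 regulatory subunits of the proteasome had a positive log2 fold change, with a median of 0.063, and the 14 core subunits had a median of -0.0024; the difference between them was not tested. The list's median depended on beta-sitosterol mouse 9: without that mouse 20 of the 31 members were negative and the median was -0.023. Of the 31 members the median was 0.036, and it was 0.019 without vehicle mouse 2, 0.0144 without vehicle mouse 5, 0.057 without beta-sitosterol mouse 6 and 0.055 without beta-sitosterol mouse 8. Of 27 deubiquitinating enzymes 22 were positive, with a median of 0.060 (0.032 with the length trend). The groups did not overlap in 5 (3.04% of all genes), namely Usp15, Usp14, Usp47, Usp11 and Usp4, all higher. Usp14, which sits on the proteasome, had 117, 116, 118 and 125 CPM in beta-sitosterol mice, against 107, 98.7, 107 and 104 CPM in vehicle mice.

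Importins, the carriers that bring proteins through the nuclear pore, had small positive fold changes. Of 16 genes, 14 were positive with a median log2 fold change of 0.099, and in 8 of them (3.04% of all genes) the groups did not overlap. The number at an unadjusted p under 0.05 was 7 (5.78% of all genes on the higher side), and it was 3 without vehicle mouse 3 and beta-sitosterol mouse 9 together. Ipo5 had 168, 167, 171 and 172 CPM in beta-sitosterol mice, against 156, 145, 152 and 153 CPM in vehicle mice, and its log2 fold change was 0.16 ± 0.04 (SE; edgeR adjusted p = 0.395). Ipo7 and Ipo11 had log2 fold changes of 0.16 and 0.14, and the alpha adaptor Kpna1 and the transportin Tnpo3 had 0.12 and 0.12. Other genes with small p on this side were Nkrf, a repressor of NF-kappaB targets (31.4, 33.2, 36.2 and 35.6 CPM in beta-sitosterol mice, against 30.3, 28.8, 27.6 and 28.1 CPM in vehicle mice), and the cytosolic peptidase Tpp2 (64.7, 65.6, 70.7 and 62.5 CPM in beta-sitosterol mice, against 56.7, 50.8, 57.8 and 60.9 CPM in vehicle mice), both without overlap. Arhgef3, a guanine nucleotide exchange factor, and Neto2 had log2 fold changes of 0.24 and 0.23, and Zfp788, Tram1l1 and the predicted gene Gm42492 had 0.17, 0.18 and 0.57.

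Of 23 genes of GABA signalling 18 were positive and 5 negative, with a median of 0.12, which was 0.071 without vehicle mouse 3 and 0.060 with the length trend. Gabra2, the alpha-2 subunit of the GABA-A receptor, had 259, 261, 261 and 277 CPM in beta-sitosterol mice, against 249, 218, 249 and 238 CPM in vehicle mice. Gad1, which makes GABA, had 284, 289.8, 346 and 326 CPM in beta-sitosterol mice, against 273, 242, 267 and 287 CPM in vehicle mice. Vehicle mouse 3 was the lowest of 8 in both genes, and the log2 fold changes were 0.15 ± 0.05 (SE; edgeR adjusted p = 0.397) and 0.22 ± 0.08 (SE; edgeR adjusted p = 0.422). The number of GABA genes on the higher side at an unadjusted p under 0.05 was 6 (5.78% of all genes), and 2 without vehicle mouse 3 and beta-sitosterol mouse 9. Of 16 interneuron markers 15 were positive with a median of 0.11 (0.068 without vehicle mouse 3 and beta-sitosterol mouse 9), including the cannabinoid receptor Cnr1 (0.17) and neuropeptide Y (0.25), and their sum was 1330.0 to 1450.0 CPM in beta-sitosterol mice and 1150.0 to 1310.0 CPM in vehicle mice. Of the 15 glutamate receptor genes 14 were positive with a median of 0.12, led by the kainate receptor Grik1, which had 9.04, 9.44, 9.12 and 10.3 CPM in beta-sitosterol mice, against 7.15, 8.22, 7.55 and 6.75 CPM in vehicle mice. The 9 glutamate transport and scaffold genes had a median of -0.14, with the astrocyte transporters Slc1a2 (-0.19) and Slc1a3 (-0.15) on the lower side and the neuronal Slc1a1 (0.19) on the higher. The whole glutamate list had a median of 0.080, which was 0.026 without vehicle mouse 3, 0.14 without beta-sitosterol mouse 9, 0.16 without vehicle mouse 5 and 0.0039, with 12 genes on either side, under the length trend.

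Other neuronal lists, apart from the thalamic neuron markers (median -0.45), had positive medians, some of which turned under an alternative. Dentate granule cell markers had a median of 0.16, but 0.0205 without vehicle mouse 3, 0.092 to 0.103 without vehicle mouse 2 or beta-sitosterol mouse 7 or 8, 0.25 without vehicle mouse 5 and -0.019 with the length trend as a covariate, and they summed to 727 to 929 CPM in beta-sitosterol mice and 603 to 953 CPM in vehicle mice. Pyramidal cell markers had 0.084, and 0.039 without vehicle mouse 3, 0.053 to 0.055 without vehicle mouse 2 or 4, 0.00997 without beta-sitosterol mouse 9 and -0.013 without both; Neurod6 and Cpne4 led them at 0.22 and 0.22. Cortical markers had a median of 0.082 (0.030 without beta-sitosterol mouse 9) but a mean of -0.035, with the layer factors Rorb (17.3, 18.1, 18.7 and 17.6 CPM in beta-sitosterol mice, against 20.4, 25.4, 22.2 and 22.1 CPM in vehicle mice) and Cux2 lower. Clustered protocadherins, adhesion proteins that give neurons an identity code, were positive in 19 of 21 genes with a median of 0.15, which was 0.081 without vehicle mouse 3 and 0.057, with 13 genes positive, under the length trend. Among them Pcdhb13 had 7.53, 7.99, 9.76 and 7.39 CPM in beta-sitosterol mice, against 6.45, 5.23, 6.03 and 6.09 CPM in vehicle mice; the genes of this cluster are near copies of each other, and reads may be split among them.

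**Figure D4:**
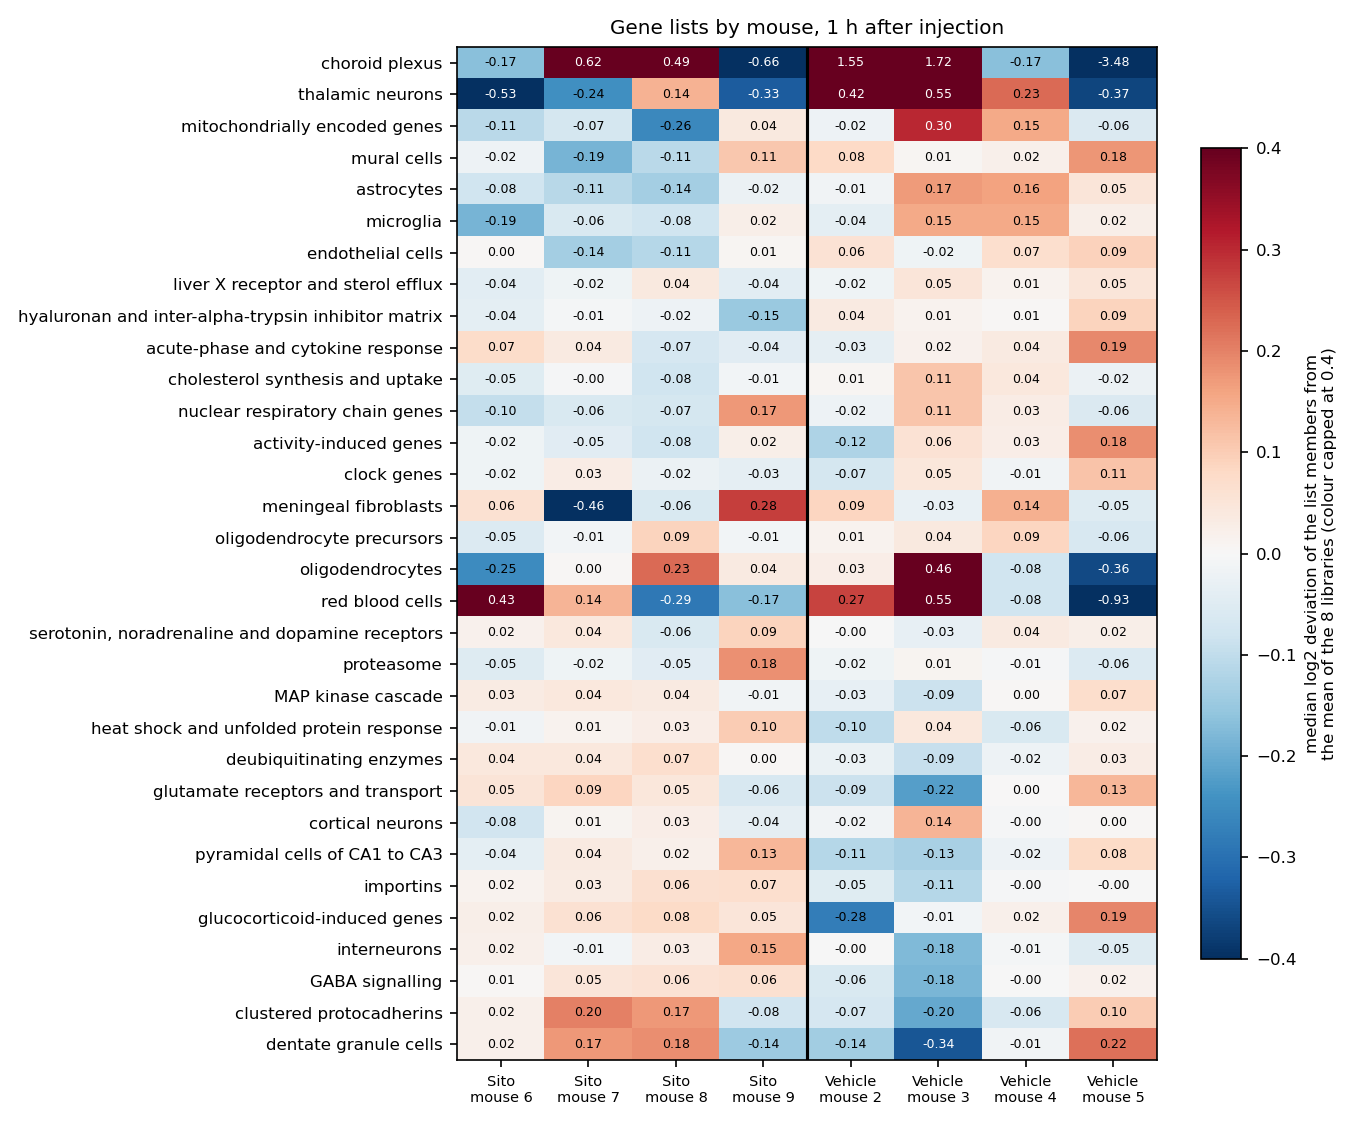
Median log2 deviation of each gene list (rows) from the mean of the 8 libraries, per mouse (columns, beta-sitosterol mice 6 to 9 left of the line, vehicle mice 2 to 5 right), ordered by the list's median log2 fold change; colour stops at 0.4. Astrocyte markers run from -0.14 to -0.02 in beta-sitosterol mice and from -0.01 to 0.17 in vehicle mice, and choroid plexus markers spread from -3.48 to 1.72 among vehicle mice.

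Genes of the sterol programme had small fold changes, mostly negative. Of 28 genes of cholesterol synthesis and uptake 24 were negative, with a median of -0.045 and a range over alternatives of -0.067 (without beta-sitosterol mouse 9) to -0.021 (without vehicle mouse 3). Insig1, the anchor of SREBP in the endoplasmic reticulum, had a log2 fold change of -0.18 ± 0.08 (SE; edgeR adjusted p = 0.465). Among 21 liver X receptor genes and targets the median was -0.086, and 6 were lower at an unadjusted p under 0.05, against 4.44% of all genes (1 without beta-sitosterol mouse 9, 2 without vehicle mouse 3, 3 without vehicle mouse 2). Apoe, the lipid carrier made by astrocytes, had 1164, 1128, 1095 and 1193 CPM in beta-sitosterol mice, against 1217, 1439, 1367 and 1254 CPM in vehicle mice. The groups did not overlap, and the log2 fold change was -0.20 ± 0.07 (SE; edgeR adjusted p = 0.397), beside the lower astrocyte markers. Abca1, the sterol exporter most used to read receptor activation, had 64.1, 60.9, 64.9 and 49.5 CPM in beta-sitosterol mice, against 70.02, 66.4, 63.2 and 64.2 CPM in vehicle mice, with a log2 fold change of -0.14 ± 0.07 (SE; edgeR adjusted p = 0.518), and Scd1 and Soat1, which desaturate fatty acids and esterify cholesterol, had -0.24 and -0.14.

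Mitochondrially encoded transcripts had mostly negative fold changes, and how many had an unadjusted p under 0.05 depended on single libraries. Of 13 genes 12 were negative, with a median of -0.20 (-0.254 without beta-sitosterol mouse 9, -0.135 without vehicle mouse 3 and -0.105 with the length trend). At least 11 were negative whichever mouse was left out. At an unadjusted p under 0.05 there were 8 (4.44% of all genes on the lower side). That count was 1 without vehicle mouse 3, 1 without beta-sitosterol mouse 8, 4 without vehicle mouse 4 and 1 with the length trend as a covariate. Lower genes among all those tested numbered 757 at that threshold. They numbered 473, 567, 634 and 540 under the same 4 alternatives. mt-Nd4, a subunit of complex I, had 3824, 3867, 3376 and 4078 CPM in beta-sitosterol mice, against 4059, 5063, 4750.0 and 4104 CPM in vehicle mice. The nuclear respiratory chain genes had a median of -0.036, which turned to 0.015 without vehicle mouse 3 and to 0.045 with the length trend. Over all genes, the 3395 with the shortest transcripts had a median log2 fold change of -0.043 and the 3395 with the longest 0.019.

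Stress and hormone genes had small fold changes on both sides. Of 15 glucocorticoid-induced genes 11 were positive with a median of 0.11, but -0.028 without vehicle mouse 2, 0.20 without vehicle mouse 5 and 0.012 with the length trend. Fkbp5, the co-chaperone of the receptor, had 71.3, 78.5, 81.7 and 85.8 CPM in beta-sitosterol mice, against 59.7, 54.7, 70.7 and 83.1 CPM in vehicle mice, and Sgk1, a kinase induced by the receptor, had 131, 152, 164 and 122 CPM in beta-sitosterol mice, against 89.3, 145, 118 and 136 CPM in vehicle mice; both overlapped. Klf9 had 0.21. Clock genes had a median of -0.033, which turned to 0.015 without vehicle mouse 5, with 9 genes on either side, and was -0.063 without vehicle mouse 4, -0.014 without beta-sitosterol mouse 8 and -0.022 without beta-sitosterol mouse 9. Rora had -0.47; it is also one of the thalamic neuron markers, whose median was -0.45. Bhlhe40 had 0.19. Of 20 heat shock and unfolded protein genes 15 were positive with a median of 0.056 and a mean of -0.0077; the constitutive chaperones Hspa8 and Hsp90ab1 had 0.14 and 0.15, and the small chaperone Hspb1 had -0.52. Among the 24 genes of the MAP kinase cascade 15 were positive with a median of 0.041 (0.011 without vehicle mouse 3 and 0.0079 with the length trend), with Map2k4 at 0.19 and Map2k1 at 0.18. The receptors for serotonin, noradrenaline and dopamine had a median of 0.029, which turned to -0.0043 without vehicle mouse 5 and was 0.0147 without vehicle mouse 2, 0.046 without vehicle mouse 4 and 0.060 without beta-sitosterol mouse 8, with Drd5 at 0.33 and Adra1b at -0.51.

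The 6 h mice are other animals, so the effects at both times can be compared. No gene passed for a difference between the effect at 1 h and the effect at 6 h (0%, edgeR adjusted p of 1 throughout), and 327 (1.92%) had an unadjusted p under 0.05. Apold1 averaged 3.40 ± 0.66 CPM in beta-sitosterol mice and 3.40 ± 0.42 CPM in vehicle mice at 6 h (SD, n = 4 each), where the beta-sitosterol mice of 1 h averaged 3.48 ± 0.55 CPM and the vehicle mice of 1 h 7.55 ± 2.62 CPM. Arc at 6 h averaged 117 ± 29.2 CPM in beta-sitosterol mice and 111 ± 15.5 CPM in vehicle mice, and Fos averaged 8.48 ± 2.17 CPM in beta-sitosterol mice and 8.27 ± 2.00 CPM in vehicle mice. For Apold1, Arc and Fos the vehicle mice of 1 h thus had the highest mean of the 4 groups. The median of the 52 activity-induced genes was -0.036 at 1 h and 0.038 at 6 h. The difference of effects had an unadjusted edgeR p of 0.000183 for Hhex, 0.000875 for Olig2, 0.00113 for Apold1, 0.00118 for Btg2 and 0.00414 for Arc, each with an adjusted p of 1.

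Some other genes had similar values at both times, while some list medians differed. Of the 17055 genes tested, groups were apart at both times, in the same direction, in 186, 143 higher and 43 lower. In 2 genes the directions were opposite. With the genes apart at both times included, 519 genes (3.04%) were higher without overlap at 1 h and 332 (1.95%) lower. Counted in the same way at 6 h, 938 genes (5.5%) were higher without overlap and 591 (3.47%) lower, 1529 in all (8.97%). At that time 2070 genes (12.1%) had an unadjusted edgeR p under 0.05. Plxnb1 had log2 fold changes of -0.26 at 1 h and -0.26 at 6 h, Fads2 -0.23 and -0.22, and Apoe -0.20 and -0.27. On the higher side Usp15 had 0.20 and 0.15, Ipo7 0.16 and 0.16, and Matr3 0.19 and 0.18. The list medians at 1 h and 6 h were -0.18 and -0.095 for astrocytes, -0.14 and -0.11 for microglia, 0.099 and 0.10 for importins, and 0.0038 and -0.28 for oligodendrocytes. For mural cells they were -0.19 and 0.052, and for meningeal fibroblasts -0.031 and 0.25.

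**Figure D5:**
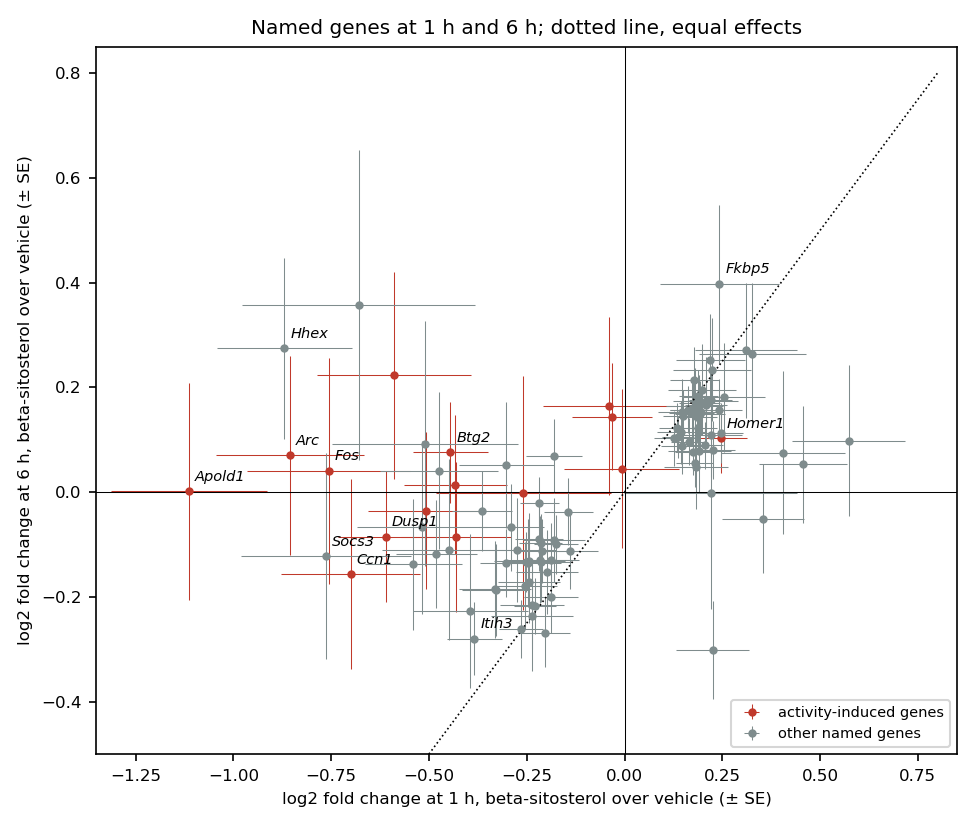
Log2 fold change of beta-sitosterol over vehicle at 1 h (x axis) against that at 6 h (y axis) for the named genes except Ttr, with standard errors and a dotted line of equal effects. Activity-induced genes such as Apold1, Arc and Fos lie left of the line near 0 at 6 h, while many other named genes lie near it.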

How the data were processed

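Each of the 16 libraries is 1 mouse, made with the TruSeq mRNA kit from RNA of integrity 7 or more, per the labels' protocols. Raw counts were deposited as whole reads per Ensembl gene, and a second deposited table gives the authors' normalized signal, which is those counts times a factor per library of 0.853 to 1.11. Mapping used GRCm38, and the tools listed are DESeq2 1.6.3, HTSeq 0.6.1p1, TopHat2 2.0.10, cutadapt and CASAVA 1.8.2, per the submitters' processing notes. The sources used here name neither the strand setting nor the annotation release. Of 46603 gene IDs 46005 matched a symbol.

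A filterByExpr step (count minimum 10, total minimum 15) kept 17055 genes. They were tested in R 4.3.3 with edgeR 4.0.16: TMM scaling, a robust quasi-likelihood fit to all 16 libraries with 12 residual degrees of freedom, and Benjamini-Hochberg adjustment over all genes tested. Contrasts were beta-sitosterol minus vehicle at 1 h and that effect minus the effect at 6 h. Scripts were tested on simulated data.

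Alternatives were RLE scaling, no filter, a filter at 5 CPM, a DESeq2 1.42.0 Wald test (and, chosen after seeing the data, its filtering target at 0.05), limma 3.58.1 on log2(signal + 1), the 1 h libraries alone, a choroid plexus score or the length trend as covariate, leaving out vehicle mouse 3 with beta-sitosterol mouse 9, and leaving out each 1 h mouse. The named genes are 102: the 12 smallest p-values per direction, up to 6 DESeq2 calls per direction, a set of 22 reported whatever their result, and up to 3 members of each of 32 lists. Members, lists, tests and the naming rule were chosen with earlier results of these data known. Lists are described by counts and medians, with no test. Some of the named genes are not reported here.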

Additional observations from a re-analysis of the deposited data

Results flagged for a closer look

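Values of 4 mice in a group were checked for one mouse whose gap to the next, as a share of the group's range, exceeds Dixon's 95% critical value, in 274 groups of values, where chance gives about 1 in 20; 14 were found. Beta-sitosterol mouse 9 was the lowest of its group for Plxnb1 (130.0 CPM) and the highest for Homer1 (116 CPM) and Gabra2 (277 CPM). It was also the highest for the median deviation of the proteasome genes (0.18 on the log2 scale) and of the nuclear respiratory chain genes (0.17). Beta-sitosterol mouse 6 was the lowest for Npas4 (5.46 CPM) and the highest for Itih5 (51.8 CPM), an inter-alpha-trypsin inhibitor heavy chain, and beta-sitosterol mouse 8 was the lowest for mt-Nd4l (26.8 CPM).

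Among the vehicle mice, mouse 3 was the highest for Hspb1 (4.13 CPM) and for the median deviation of the cortical neuron markers (0.14), and the lowest for Cnr1 (168 CPM) and Itih5 (48.6 CPM). Vehicle mouse 2 was the highest for Eng (28.2 CPM), and vehicle mouse 5 was the highest for Hspa8 (633 CPM).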

How the results depend on the processing

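No setting of edgeR or limma called a gene at 1 h. DESeq2 called 29 genes, 11 higher and 18 lower. With its filtering target at 0.05 it called 54, 33 higher and 21 lower, and the cause was not tested. Among the named genes 38 results passed, all in DESeq2. A gene that passed under both of its filtering targets counts once for each. Genes at an unadjusted p under 0.05 numbered 1044 without vehicle mouse 3 and beta-sitosterol mouse 9, and 967 to 2909 when 1 mouse was left out. They numbered 1250 of 16570 with the 1 h libraries alone, 1260 with the length trend and 2341 with the choroid plexus score. The smallest edgeR adjusted p in these 3 fits was 0.651, 0.622 and 0.07. For the difference between 1 h and 6 h such genes numbered 619 with no filter, where more genes were tested, 187 with the strict filter, where fewer were, 594 with the choroid plexus score, 531 without mice 3 and 9, and 264 to 574 when 1 mouse was left out. Of the 32 list medians, 28 moved by over 1.5 times or turned sign under at least 1 alternative, and 11 turned sign. Among them were those of liver X receptor genes (-0.045 without mice 3 and 9), pyramidal cell markers (-0.013 without mice 3 and 9) and hyaluronan genes (-0.067 in all libraries, -0.013 with the length trend, -0.14 to -0.013 when 1 mouse was left out), and acute-phase genes had -0.16 to -0.0058 when 1 mouse was left out.

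Sign changes among named genes were few. Ttr had 0.46 in limma, 0.32 with the choroid plexus score and 0.26 with the length trend. With 1 mouse left out, Dusp6 ranged from -0.10 to 0.053, Egr1 from -0.11 to 0.078 and Fosb from -0.11 to 0.079, and Fosb had 0.014 with the length trend. The sign turned without vehicle mouse 5 for Dusp6, without beta-sitosterol mouse 6 (0.016) or vehicle mouse 5 for Egr1, and without beta-sitosterol mouse 7 (0.042) or 8 or vehicle mouse 3 (0.045) for Fosb. The median of the choroid plexus markers was -0.68, and 0.15 in limma. The cause of these changes was not tested. No paired analysis was possible because each mouse number occurs in 1 group only. Mice of 1 group differed beyond counting noise, with a chi-square per degree of freedom of 3.46 to 52.0 over the 12 pairs at 1 h, and how far depth limits the low genes was not tested.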

Other observations

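The gene with the most negative log2 fold change among all tested was Shox2, a homeobox factor of thalamic neurons, chosen here after its values were seen. It had 0.035, 0.283, 0.424 and 0 CPM in beta-sitosterol mice, against 1.92, 2.84, 2.23 and 0.147 CPM in vehicle mice, with a log2 fold change of -3.21 ± 1.28 (SE; edgeR adjusted p = 0.441). Tnnt1, a troponin gene also chosen after its values were seen, had 0.981, 1.27, 1.59 and 1.12 CPM in beta-sitosterol mice, against 3.98, 7.54, 4.65 and 1.21 CPM in vehicle mice (log2 fold change -1.80). In both genes vehicle mice 2, 3 and 4 were high and vehicle mouse 5 lay within the beta-sitosterol range. Of 9 markers of thalamic neurons tested, 8 were negative at 1 h with a median of -0.45, and at 6 h 2 were negative with a median of 0.052. Tcf7l2, one of these markers, had 5.29, 7.21, 6.89 and 4.85 CPM in beta-sitosterol mice, against 10.6, 17.5, 12.9 and 4.99 CPM in vehicle mice. The markers summed to 174 to 277 CPM in beta-sitosterol mice and 179 to 316 CPM in vehicle mice, and the part of the dissection in these values was not tested.

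The markers of red blood cells, meningeal fibroblasts and oligodendrocyte precursors had median log2 fold changes of 0.0077, -0.031 and -0.025, with Olig2, at 0.23, the single member at an unadjusted p under 0.05.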
